A study of Bos taurus with 15 samples.

Results

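The cells described here are leukocytes of the cattle colon at the newborn (NB) and adult (AD) stages, taken from 1 single-cell RNA sequencing library of each stage. They were chosen by 2 genes. A barcode was kept when it held 500 to 4000 genes, under 50000 unique molecular identifiers (UMIs, counted RNA molecules), at least 1 UMI of *PTPRC*, which encodes the leukocyte surface protein CD45, and 0 UMIs of *EPCAM*, which encodes an adhesion protein of epithelial cells. Of 18939 colon barcodes, 9098 were members, 1573 of 8241 in NB and 7525 of 10698 in AD. The whole series held 172405 barcodes in 15 libraries. Both stages were Holstein dairy cattle. The NB colon came from a calf, but which of the 3 calves of the study it was is not named in the sources used here, and the AD colon came from a single lactating cow. The outer muscle was removed at both stages. The NB colon was treated with 20 mM EDTA for 30 min and 0.25% trypsin-EDTA for 5 min before an enzyme kit for 30 min, whereas the AD colon was digested with a multi tissue kit for 41 min and its red blood cells were lysed for 2 min. No library was replicated, so stage, animal, and dissociation cannot be told apart, no test between stages was made, and every interval below covers counting error only.

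The colon wall holds several families of leukocytes. T cells carry the CD3 complex beside their antigen receptor, and in the gut many of them sit in or under the epithelium and express cytotoxic proteins. B cells gather in lymphoid follicles, where they divide in germinal centers and mature toward antibody-secreting plasma cells. Macrophages of the lamina propria take up dying cells and microbes, while monocytes and neutrophils arrive from the blood.

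Members were 32.8% of the passing barcodes in NB (1573 of 4803) and 80.5% in AD (7525 of 9345). Members had a median of 5516 UMIs and 1588 genes in NB and 3986 UMIs and 1375 genes in AD. Mitochondrial genes gave a median of 4.6% of UMIs in NB and 7.05% in AD, and 4 NB and 16 AD members had at least 40%. Of the barcode sequences of the NB colon, 429 were also present in at least 1 other library, among them 73 members, and for the AD colon the numbers were 441 and 321. The NB and AD colon shared 15 barcode sequences, which were members in 5 NB and 11 AD cases. Leaving out every member with a shared barcode gave 231 genes higher in NB and 168 higher in AD in the comparison described below, against 231 and 165 with all members.

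The label of leukocytes was checked against genes that the choice did not use. Just inside the threshold, 679 NB and 1271 AD members had a single *PTPRC* UMI, and just outside it 2075 NB and 1246 AD barcodes had no UMI of *PTPRC* or *EPCAM*. *LAPTM5*, a lysosomal gene of leukocytes, was at 1171 CPM (UMIs of a gene per 1000000 UMIs of the summed cells) in AD members with 1 *PTPRC* UMI and at 1284 CPM in those with more. In NB members *LAPTM5* lay between 625 and 721 CPM on the 2 sides of that line. The barcodes just outside still held 400 CPM of *LAPTM5* in NB and 635 CPM in AD, and whether this RNA was that of leukocytes without a captured *PTPRC* molecule or free RNA was not tested. *COL1A2*, a collagen gene of fibroblasts, was at 319 CPM in NB and 505 CPM in AD just outside, and at 2.6 to 7.6 CPM in NB members and 11 to 24.9 CPM in AD members. *PTPRC* and *EPCAM* were both present in 158 NB and 331 AD barcodes, which were not members. Of the 15 genes of a general leukocyte list, 14 were within 4-fold between the stages. *PTPRC* itself was at 322 CPM in NB members and 868 CPM in AD members, but it chose the cells and is given as a description.

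The most visible contrast was in the mix of cells. Members were sorted into 3 gates. The T gate required a UMI of *CD3D*, *CD3E*, or *CD3G*, the B gate a UMI of *CD79A* or *MS4A1*, and the myeloid gate a UMI of *CSF1R* or *C1QB*, each with 0 UMIs of the genes of the other gates. Because more UMIs find more markers, each cell was thinned to 1000 UMIs, which left out 10 NB and 25 AD members. The T gate then held 25.1% of NB members (95% exact binomial interval 23.0 to 27.4) and 87.8% of AD members (87.0 to 88.5). The B gate held 29.1% in NB (26.9 to 31.4) and 2.19% in AD (1.87 to 2.54). The myeloid gate held 8.64% in NB (7.29 to 10.1) and 1.53% in AD (1.27 to 1.84). The intervals of the 2 stages did not overlap in any gate, and the T gate was the one with the larger share in AD.

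RNA released from broken cells puts UMIs of such markers into other barcodes, so the same gates were applied to barcodes without *PTPRC* that held a UMI of *COL1A2* or *EPCAM*. These other barcodes had a median of 7641 UMIs in NB (1226 barcodes) and 7068 UMIs in AD (402 barcodes). Thinned alike, they entered the T gate in 0.988% of cases in NB and 6.12% in AD, and the B gate in 3.37% and 0.510%. They entered the myeloid gate in 2.55% of cases in NB and 0.765% in AD. The AD interval for the last value, 0.158 to 2.22%, overlapped that of the AD members, so this share alone did not separate them from background. Of the 97 AD cells in the gate without thinning, 96 lay in the macrophage-like cluster described below. That cluster had 207 cells, of which 46.4% entered the gate, so the gate missed part of it. The myeloid gate cells of AD also held 13382 CPM of *C1QA*, a complement gene of macrophages that did not choose them, against 11.2 CPM in the other barcodes of AD. In NB, *C1QA* was at 7290 CPM in the myeloid gate and 73.9 CPM in the other barcodes.

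Without thinning, the T gate held 346 NB (22.0%) and 6354 AD cells (84.4%), the B gate 596 (37.9%) and 175 (2.33%), and the myeloid gate 152 (9.66%) and 97 (1.29%). Another 479 NB members (30.5%) and 899 AD members (11.9%) entered no gate. Median UMIs in NB and AD were 4918 and 3869.5 in the T gate, 6179.5 and 5258 in the B gate, and 9078 and 6047 in the myeloid gate. All later sums over a gate used these unthinned cells. Unthinned, the other barcodes entered the T gate in 2.94% of cases in NB and 18.2% in AD, the B gate in 6.93% and 1.24%, and the myeloid gate in 5.79% and 3.23%, the last above the 1.29% of the AD members.

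**Figure D1:**
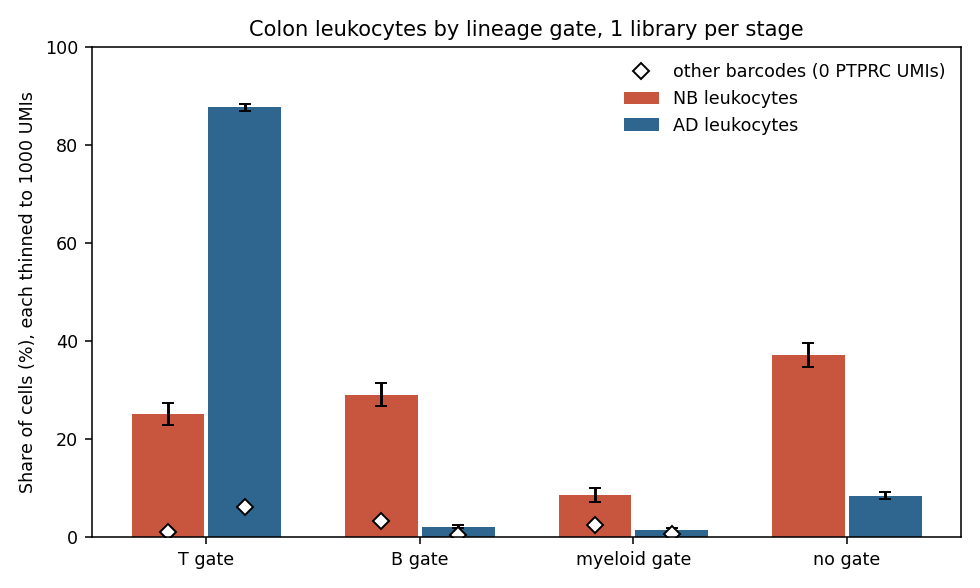
Share of colon leukocytes in each gate (y axis, % of cells after thinning each cell to 1000 UMIs), with a bar for NB and AD, 95% exact binomial intervals, and diamonds for the share of other barcodes that pass the same gate. The T gate takes 25.1% of NB and 87.8% of AD members, while the B and myeloid gates are larger in NB.

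The cells of each library were also clustered on their own, and a cluster was named only from its marker genes. Since those genes define the clusters, sizes are given per library and are not compared. The 20 NB clusters included B cell-like cells (164 and 95 cells), a germinal center B cell-like cluster (76), a plasma cell-like cluster (56), and a thymocyte-like cluster (72). They also included CD8 and cytotoxic-like cells (128), T cell-like cells (155), CD4 and helper T cell-like cells (45), macrophage-like cells (108), monocyte-like cells (76), mast cell-like cells (37), dendritic cell-like cells (36), and neutrophil-like cells (35). The CD8 and cytotoxic-like cluster of NB was led by genes such as *IFNG*, *XCL1*, *CCL5*, and *CTSW*, with no CD8 gene among the top 10. *CD8A* was instead among the top 10 of the T cell-like cluster. Of the cells of these 2 clusters, 53.1% and 68.4% were in the T gate. Of the unnamed NB clusters, 2 were led by genes of cell division (154 and 45 cells), and *MKI67*, a marker of cycling cells, was present in 91.6% and 97.8% of their cells. Another unnamed NB cluster of 127 cells was led by genes of vessels and matrix, although 53% of its cells were in the T gate.

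The 18 AD clusters were mostly of T cells. CD8 and cytotoxic-like cells filled 4 clusters (3157 cells) and CD4 and helper T cell-like cells 3 clusters (1417 cells). The rest included macrophage-like (207), B cell-like (126), plasma cell-like (98), germinal center B cell-like (56), epithelial cell-like (143), and fibroblast and smooth muscle-like cells (26). Unnamed AD clusters numbered 5 and held 2295 cells. The largest, with 1102 cells, was led by *KIT*, *CTSW*, *ID3*, and *TCF7*. A dividing AD cluster held 139 cells, of which 90.6% had *MKI67*. The epithelial cell-like cluster of AD had a median of 23.7% mitochondrial UMIs, and 81% of its cells were in the T gate.

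All members were then summed per library and compared gene by gene. A gene was called when it differed at least 4-fold after 5 CPM had been added on both sides, its 95% exact Poisson intervals did not overlap, and it reached 10 CPM in either library. Of 7778 genes compared, 231 were called higher in NB (2.97%) and 165 higher in AD (2.12%). A log2 ratio below is NB over AD with 5 CPM added, and its median over all compared genes was -0.02. In a summed level, fewer cells of a type and less RNA per cell cannot be told apart. When the libraries were scaled by the trimmed mean of M values (TMM), NB ratios fell by 0.14 (log2) and the numbers became 192 and 191. Few calls rested on single cells: a single cell held at least 50% of the UMIs for 3 of the 231 genes and 0 of the 165.

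**Figure D2:**
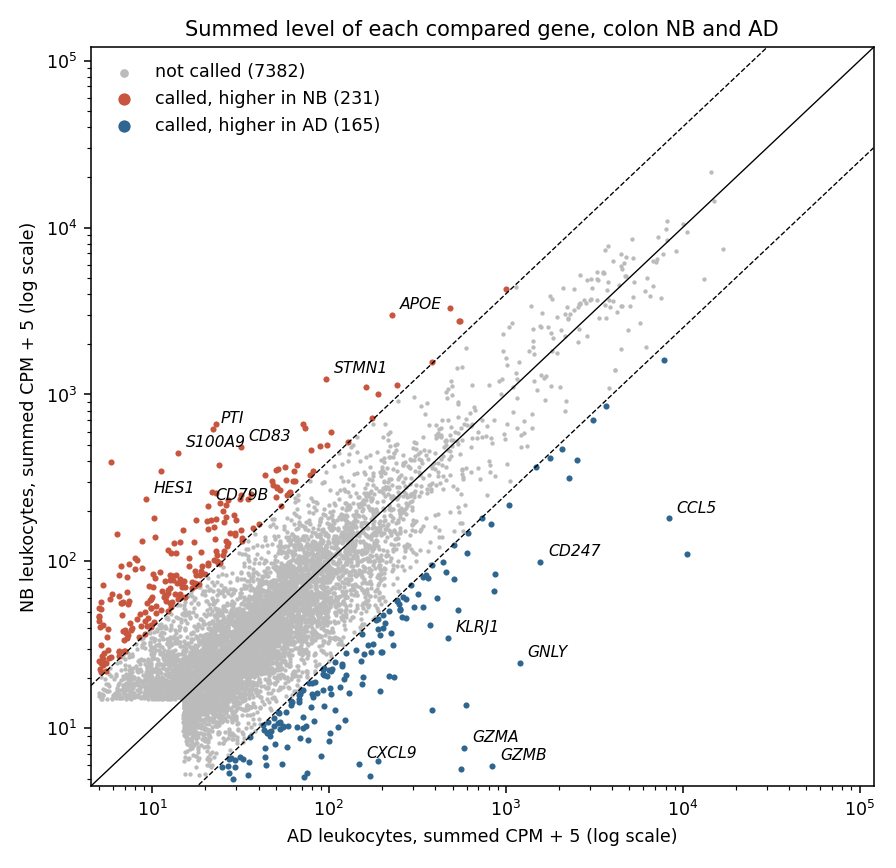
Summed level of each compared gene in colon leukocytes, AD on the x axis and NB on the y axis (CPM with 5 added, log axes), with dashed lines at 4-fold. The 231 genes called higher in NB lie above the upper line and the 165 called higher in AD below the lower one.

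Among genes with a symbol and at least 100 CPM, those with the largest ratios toward AD were mostly effectors of cytotoxic lymphocytes. *CCL5*, a chemokine of activated T cells, was at 176 CPM in NB (interval 168 to 184) and 8345 CPM in AD, a 47.4-fold difference. It was present in 16.5% of NB members and 81.2% of AD members. *GZMB*, the protease granzyme B (ENSBTAG00000010057), was at 0.956 CPM in NB (0.477 to 1.71) and 832 CPM in AD (822 to 842). *GZMA*, another granzyme, was at 2.61 CPM (1.76 to 3.72) and 579 CPM (571 to 587). *GNLY*, granulysin, which lyses microbial membranes, was at 19.8 and 1196 CPM, and *PRF1*, the pore-forming perforin, at 11.6 and 189 CPM. For all of these the AD interval lay far above the NB interval. A gene listed as *gzmA* apart from *GZMA* was at 0.174 CPM in NB, which was 2 UMIs, and at 166 CPM in AD, a ratio of 954 with a counting interval of 264 to 7882.

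Granzymes are close paralogs, and how reads were divided among them is not known here. A further *GZMB* entry (ENSBTAG00000053015) went the other way, with 298 CPM in NB and 57.4 CPM in AD, and it was among the leading genes of the NB mast cell-like cluster. The remaining genes with the largest log2 ratios toward AD included *CD247* (94.6 and 1565 CPM), the signaling chain of the T cell receptor complex, *CD96* (61.4 and 848 CPM), and *CD6* (15.4 and 227 CPM), both T cell surface receptors. *AOAH* (6.25 and 118 CPM) and *ADGRG1* (15.7 and 212 CPM) were also among them. *KLRJ1*, a lectin-like receptor gene, was at 29.7 and 464 CPM, and 88.3% of its AD UMIs fell in 1 unnamed cluster of 700 cells. *IFI47*, an interferon-inducible GTPase, was at 46.3 and 529 CPM, and *GCNT2* was at 5.21 and 108 CPM. *CXCL9*, an interferon gamma-induced chemokine, was at 1.13 and 142 CPM, with 96.4% of its AD UMIs in the macrophage-like cluster. Other barcodes held 34 CPM of *CXCL9* in NB and 499 CPM in AD, more than the members themselves, and whether free RNA adds to the AD level was not tested.

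The corresponding genes toward NB came from several kinds of cells. *S100A9* (441 CPM, interval 429 to 453, against 9.01 CPM, 8.04 to 10.1), *S100A8* (345 against 6.18 CPM), and *S100A12* (665 against 18.1 CPM) encode calcium-binding proteins abundant in neutrophils. The NB neutrophil-like cluster, which was 2.23% of the NB members, held 68.6%, 70.7%, and 65.8% of their NB UMIs. *S100A8* was present in 72 NB members, and the 5 highest of them held 60.8% of its UMIs. *PTI*, a bovine trypsin inhibitor found in mast cells, was at 614 and 17.1 CPM, with 86.3% of its NB UMIs in the mast cell-like cluster. *APOE* (2985 and 223 CPM), a lipid carrier, and *TIMD4* (252 and 17.9 CPM), a receptor for dying cells on resident macrophages, had 94.6% and 93.4% of their NB UMIs in the macrophage-like cluster. The other barcodes also held *APOE*, at 594 CPM in NB and 1156 CPM in AD.

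*STMN1*, a microtubule regulator of dividing cells, was at 1237 CPM in NB and 91 CPM in AD, and 58.9% of its NB UMIs lay in a dividing cluster. *CRABP1*, a retinoic acid-binding protein, was at 178 and 5.24 CPM, with 78.3% of its NB UMIs in 1 unnamed cluster of 89 cells. *CD79B*, a chain of the B cell receptor, was at 210 and 15.7 CPM. The neutrophil-attracting chemokines *CXCL3* (134 and 5.38 CPM) and *GRO1* (255 and 16.9 CPM) were also higher in NB.

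A further set of NB-higher genes is known for rapid induction in many cell types. *HES1*, a target of Notch signaling, was at 233 and 4.26 CPM, *KLF4* at 127 and 3.75 CPM, *ZFAND2A*, a stress-induced gene, at 374 and 19 CPM, and *CD83* at 482 and 26.8 CPM. *HES1* was present in 27.9% of NB and 1.01% of AD members, and *CD83* in 38.6% and 4.28%. In the other barcodes *HES1* was at 308 CPM in NB and 309 CPM in AD, and *KLF4* at 125 and 248 CPM, so neither was higher in NB there. *ZFAND2A* was at 161 and 49.1 CPM in the other barcodes.

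**Figure D3:**
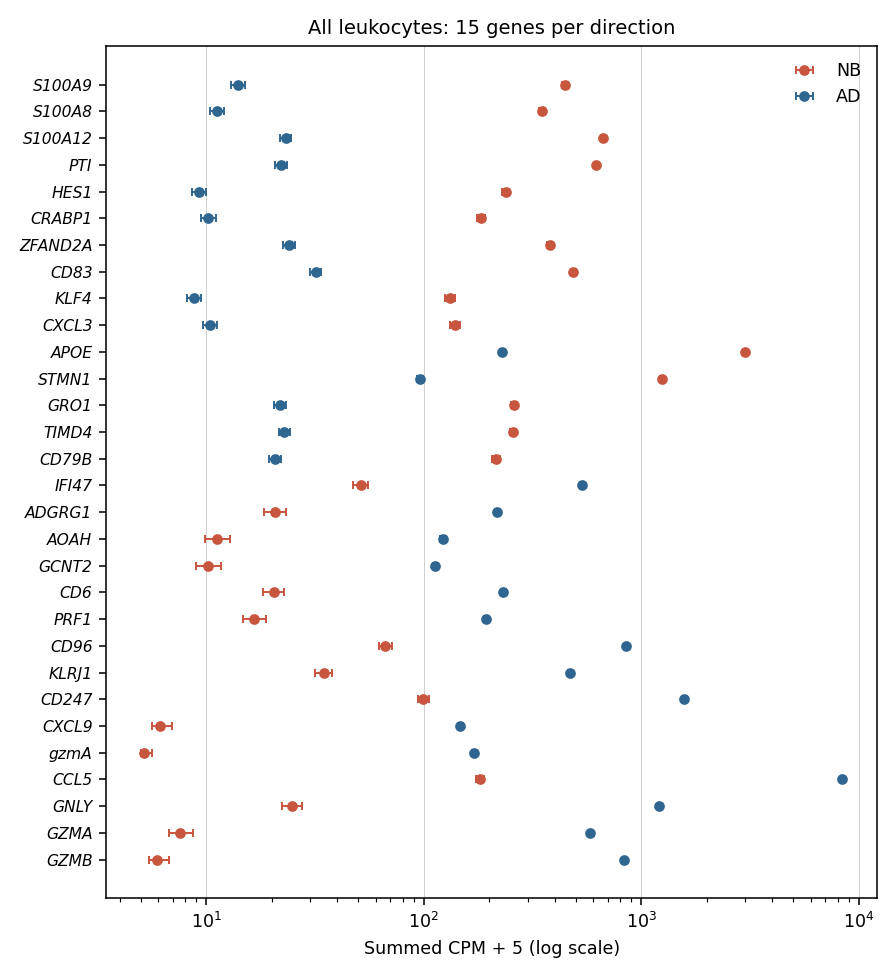
Summed level (CPM with 5 added, log x axis) of the 15 called genes with the largest log2 ratio in each direction among genes with a symbol and at least 100 CPM in either library, one row per gene, with a point and a 95% exact Poisson interval for each stage. The points of the 2 stages are more than 4-fold apart in every row by the way the genes were chosen, and the intervals are narrow beside that distance.

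Gene lists by cell type showed the same mix. Their medians below are medians of the log2 ratio over the compared genes of a list. Of 18 T cell genes, 10 were called higher in AD and 0 in NB (median -2.23), among them *CD3E* (400 CPM in NB and 2529 CPM in AD) and *CD3D* (79.2 and 864 CPM), which also chose the T gate. Of 18 CD8 and cytotoxic genes, 10 were higher in AD and 1 in NB, the second *GZMB* entry (-2.12). All but 1 of the 7 GIMAP genes, GTPases of lymphocyte survival, were higher in AD (-2.26), for example *GIMAP4* at 108 and 596 CPM. Of 8 CD4 and helper genes, *ICOS* (5.04 and 66.3 CPM) and *CD40LG* (4 and 41.5 CPM), which signal from helper T cells to B cells, were higher in AD (-1.08). Of 13 genes for homing and residence, 3 were higher in AD, among them *GPR15*, a colon-homing receptor (0.434 and 69.9 CPM), and the collagen-binding integrin *ITGA1* (1.82 and 84.7 CPM).

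B cell, myeloid, division, and stress lists stood on the NB side. Of 15 B cell genes, 13 were higher in NB and 0 in AD (2.42), with *CD79A* at 283 CPM in NB and 43.4 CPM in AD and *MS4A1*, which encodes CD20, at 245 and 53.2 CPM. The 2 genes of that list that were not called were *CD72* and *CD22*. Numbers called higher in NB were 6 of 8 monocyte genes, 5 of 7 neutrophil genes (3.14), 6 of 19 macrophage genes (1.72), 6 of 12 dendritic cell genes (1.75), and 2 of 5 mast cell genes (1.85), with none of these lists holding a gene higher in AD. The monocyte and neutrophil lists share *S100A8*, *S100A9*, *S100A12*, and *IL1B*, so their counts are not separate. *TPSB2*, a tryptase of mast cells, was at 35.6 and 0.0858 CPM. Of 9 class II genes, which present antigen, 2 were higher in NB (1.69), *BOLA-DRA* at 4273 and 998 CPM and *BLA-DQB* at 2762 and 539 CPM. Of 25 cell division genes 8 (1.85) and of 23 DNA replication genes 6 (1.51) were higher in NB. Genes of immediate response and stress had 9 of 32 higher in NB and 1 higher in AD, *KLF6*, at 702 and 3121 CPM (1.22). *IGF2* (42.7 and 1.8 CPM), a fetal growth factor, and *IGF2BP3* (51.4 and 1.77 CPM), an RNA-binding protein of fetal tissue, were also higher in NB.

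No gene of glycolysis (14 compared) or of oxidative phosphorylation (22 compared) was called. Of 12 class I genes 1, and of 21 interferon response genes 2, were higher in AD (medians -0.79 and -0.63). Plasma cell genes had 1 of 12 higher in NB (0.38). Markers of other cell types were low on both sides: the summed level of the epithelial list was 127 CPM in NB and 44.4 CPM in AD, of the fibroblast list 117 and 132 CPM, of the endothelial list 81.7 and 26.4 CPM, and of the erythroid list 78.6 and 26.7 CPM. Their part in the called genes was not tested.

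**Figure D4:**
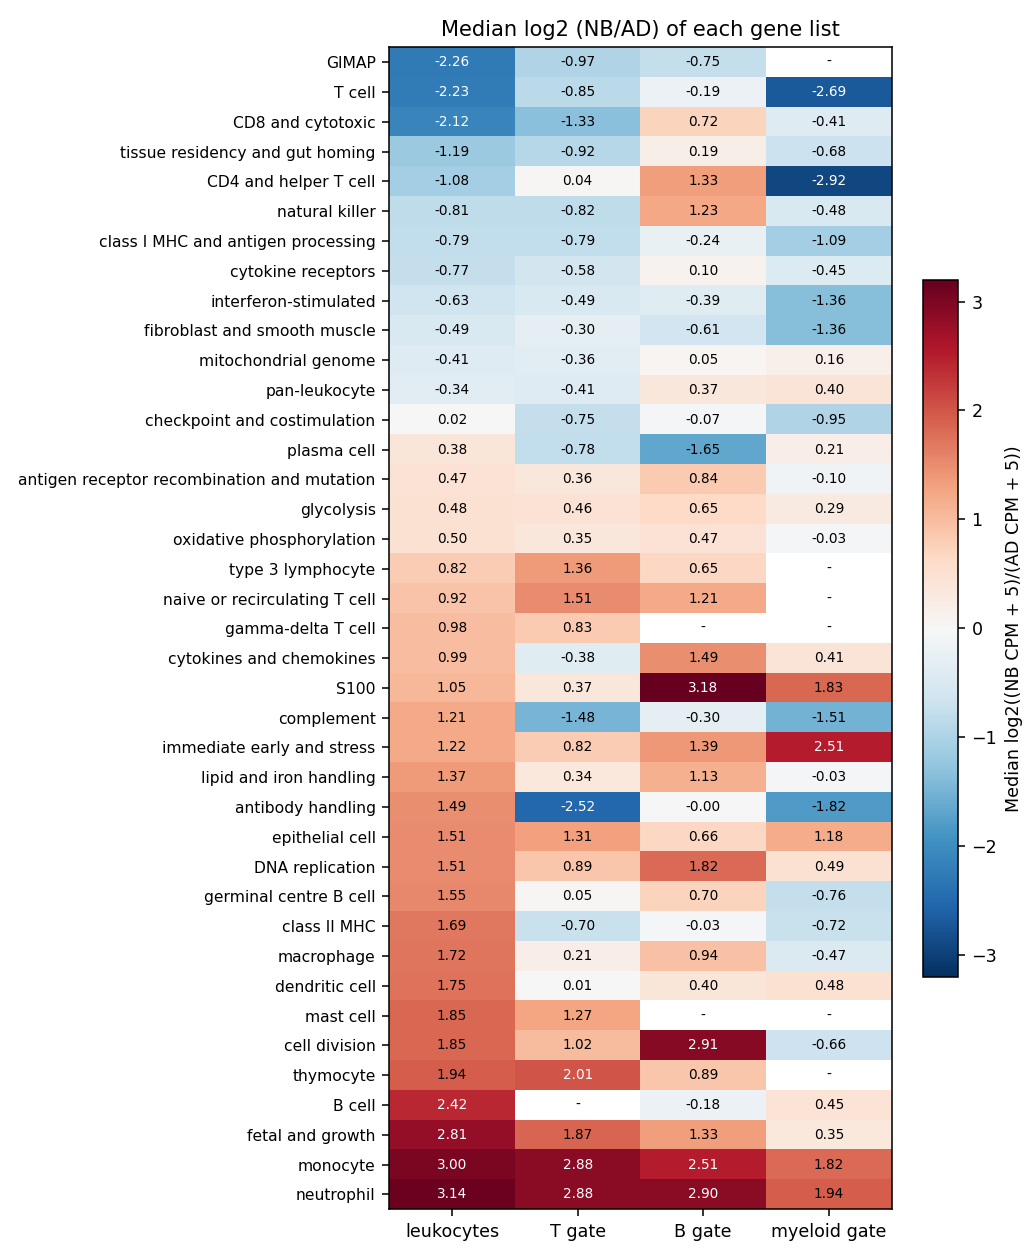
Median log2 ratio (NB over AD, 5 CPM added) of each gene list, one row per list and one column for all leukocytes and for each gate. T cell and cytotoxic lists lie on the AD side among all leukocytes (medians -2.23 and -2.12), B cell and neutrophil lists on the NB side (2.42 and 3.14), and the cell division list has a median of 2.91 in the B gate.

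Within the T gate, 346 NB cells were compared with 6354 AD cells, which narrowed the mix to cells with a CD3 UMI. The NB cluster led by vessel and matrix genes gave 67 of these NB cells. The AD epithelial cell-like cluster gave 116 of these AD cells. Of 7345 genes, 112 were higher in NB (1.52%) and 100 higher in AD (1.36%), and the median over all compared genes was -0.13. The cytotoxic effectors stayed on the AD side. *CCL5* was at 404 CPM in NB and 9525 CPM in AD (23.6-fold), *GNLY* at 12.5 and 1394 CPM, and *PRF1* at 31.9 and 217 CPM. *GZMB* rested on 2 NB UMIs (1.05 CPM against 956 CPM, a ratio of 915, counting interval 253 to 7552) and *GZMA* on 3 (1.57 against 676 CPM, a ratio of 431, interval 147 to 2090). No NB UMI of *gzmA* was counted against 193 CPM in AD, which is at least 123-fold higher by a floor of 3 UMIs.

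Shares of T gate cells after thinning to 1000 UMIs (345 NB and 6340 AD cells) gave the same order. *CCL5* was present in 20.0% of NB and 78.3% of AD cells, with 0.165% and 9.44% of the other barcodes. *GNLY* was present in 0.87% and 31.6%, with 0.165% and 1.53% of the other barcodes, and *PRF1* in 3.48% and 16.7%, with 0% and 0.255%. The NB share of *GNLY* was 3 cells. *GZMA* was present in 0 of 345 thinned NB cells, which by 3 counts of the total allows up to 0.870% of cells with a UMI at this depth, and in 29.1% of AD cells. Without thinning it was present in 3 of 346 NB cells (0.867%). The genes of the CD8 coreceptor itself were less far apart, at 129 and 301 CPM for *CD8A* and 160 and 218 CPM for *CD8B*, and neither was called. *CTSW*, a protease of cytotoxic lymphocytes, was at 773 CPM in NB and 239 CPM in AD, and *IFNG*, interferon gamma, at 40.8 and 175 CPM. Neither reached 4-fold with 5 CPM added. In all, 5 of 18 genes of the cytotoxic list were higher in AD and 0 in NB (median -1.33).

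Receptors and chemokines also distinguished the AD T gate. *GPR15* (2.09 and 80.3 CPM) and *ITGA1* (2.09 and 95.3 CPM) were higher in AD, whereas *CCR9*, a receptor for homing to the small intestine, was higher in NB (63.3 and 6.79 CPM). Over all NB members 47.8% of *CCR9* UMIs lay in the thymocyte-like cluster, and without that cluster *CCR9* was at 37.6 CPM in the NB T gate and no longer called. *CD69*, a residence marker, was at 351 and 656 CPM and was not called. *CCL3* (16.7 and 282 CPM) and *CCL4* (296 and 2053 CPM), chemokines of activated T cells, were higher in AD. *CD96* (150 and 934 CPM), *CD86* (0.523 and 19.1 CPM), and *ENTPD1* (7.32 and 47.7 CPM) made up the 3 of 9 checkpoint genes higher in AD. *CD101*, an inhibitory receptor, rested on 3 NB UMIs (1.57 and 106 CPM, a ratio of 67.8, interval 23.2 to 329). *AOAH* was at 5.75 and 131 CPM and *GCNT2* at 8.37 and 122 CPM in the T gate.

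Of 18 T cell genes only *CD247* (311 and 1716 CPM), *CD6* (50.7 and 258 CPM), and *CD3G* (24.1 and 114 CPM) were called, all higher in AD, and *CD3G* was used to choose the gate. *JCHAIN*, a plasma cell gene, was at 26.1 CPM in the NB and 766 CPM in the AD T gate. It was present in 3227 AD cells, the highest 5 held 58.1% of its UMIs, and the other barcodes held 125 CPM in NB and 2601 CPM in AD. The part of free antibody-chain RNA in this difference was not tested. Of 12 class I genes none was called (median -0.79), with *B2M* at 6981 and 13971 CPM.

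The NB T gate held more RNA of naive and immature T cells. *CCR7*, the lymph node-homing receptor of naive T cells, was at 108 CPM in NB and 2.23 CPM in AD (48.3-fold), and it was present in 8.12% and 0.363% of thinned cells, with 0.494% and 0.255% of the other barcodes, so the AD share lay at background. *LEF1*, a transcription factor of naive T cells, was at 57 and 6.06 CPM. The other genes of the 6-gene naive list were not called (median 1.51), for example *TCF7* (355 and 127 CPM). Of 11 thymocyte genes 6 were higher in NB (2.01). *DNTT*, which adds nucleotides during receptor assembly, was at 99.9 CPM in NB with no AD UMI, at least 911-fold higher. *RAG2* (15.2 CPM), a receptor recombinase subunit, *PTCRA* (49.7 CPM), the pre-T cell receptor chain, and *CD1E* (54.9 CPM) were also at 0 in AD.

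The thymocyte-like cluster, which genes such as *DNTT* and *RAG2* define, gave 36 of the 346 NB cells of the gate. Without them, 90 genes were higher in NB and 92 in AD. Of 6 thymocyte genes then compared 0 were called (0.34), while 2 of 6 naive genes were still higher in NB (1.41). *CCR7* was at 121 CPM and *PHGDH* at 230 CPM without the 36 cells, while *HES1* went from 138 to 74.1 CPM. The median of the cell division list was 1.02 over 24 compared genes with these cells and -0.60 over 13 without them, so the 2 medians are over different genes.

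The remaining NB-higher genes with the largest log2 ratios in the T gate had varied roles, and none of the 14 glycolysis or 22 oxidative phosphorylation genes was called. *PHGDH*, which starts serine synthesis, was at 229 and 7.34 CPM, *INSIG1*, a regulator of sterol synthesis, at 310 and 26.3 CPM, and *CXCR4*, a chemokine receptor, at 838 and 57.8 CPM. *SOX4*, a transcription factor of developing lymphocytes, was at 139 and 4.6 CPM, although the other barcodes held 215 and 154 CPM. *HES1* was at 138 and 2.74 CPM, *ZFAND2A* at 346 and 15.1 CPM, and *MARCKSL1* at 138 and 9.21 CPM. Of 31 stress and immediate response genes, 6 were higher in NB and 0 in AD (0.82), including *NR4A1*, which T cell receptor signals induce (441 and 49.4 CPM), and the heat shock gene *HSPA6* (199 and 45.4 CPM). Without the thymocyte-like cluster 4 were higher in NB and 1, the metallothionein gene *MT2A*, in AD (0.77), and *HSPA6* was at 186 CPM and not called. For such genes, which tissue handling is known to induce, the trypsin step and the stage cannot be told apart.

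The cytokine and chemokine list was split, with 2 of 15 genes higher in NB and 3 higher in AD (median -0.38). The 2 were *IL13* (42.9 and 1.39 CPM) and *IL4* (29.3 and 1.5 CPM), cytokines of type 2 immunity, and the 3 were *CCL3*, *CCL4*, and *CCL5*. Of 6 type 3 lymphocyte genes, *IL22* (38.7 and 3.51 CPM), which acts on the epithelium, was higher in NB (1.36), but it was present in 5 of 346 NB cells and 34 of 6354 AD cells. *TNFRSF4* (158 and 22 CPM) and *TNFRSF18* (212 and 32.8 CPM), costimulatory receptors, were the called genes of 8 CD4 and helper genes (median 0.04). *CD4* itself was at 109 and 122 CPM. *FOXP3*, the factor of regulatory T cells, was present in 4 of 346 NB cells (1.16%, interval 0.316 to 2.93) and 5 of 6354 AD cells (0.0787%, 0.0256 to 0.184). After thinning, 2 NB and 1 AD cells were left. *ID3* (306 and 43.1 CPM) was the called gene among 3 of the gamma-delta T cell list.

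For a pair of NB-higher genes of the T gate, most RNA lay in other barcodes or in few cells. *EBD*, an enteric defensin of epithelial cells, was at 174 and 13.4 CPM in the gate but 14257 and 8190 CPM in the other barcodes. *PTI* was at 195 and 12 CPM, and it was present in 16 NB cells, of which 5 held 97.1% of its UMIs. The summed epithelial list in the T gate was 142 CPM in NB and 37.6 CPM in AD, the fibroblast list 117 and 121 CPM, the macrophage list 209 and 225 CPM, and the B cell list 87.3 and 19.8 CPM. The neutrophil list was at 211 and 17.8 CPM, with 3 of 4 genes higher in NB (2.88), and the monocyte list at 302 and 154 CPM, with the same 3 of 4 called. These 3 were *S100A8* (27.7 and 0.731 CPM), *S100A9* (54.4 and 1.28 CPM), and *S100A12* (70.1 and 1.24 CPM), present in 7, 8, and 14 of the 346 NB cells, and a single cell held 67.9%, 74.0%, and 56.7% of their UMIs. The part of other cell types in the T gate was not tested. Leaving out the NB cluster led by vessel and matrix genes and the AD epithelial cell-like cluster gave 131 genes higher in NB and 127 in AD.

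**Figure D5:**
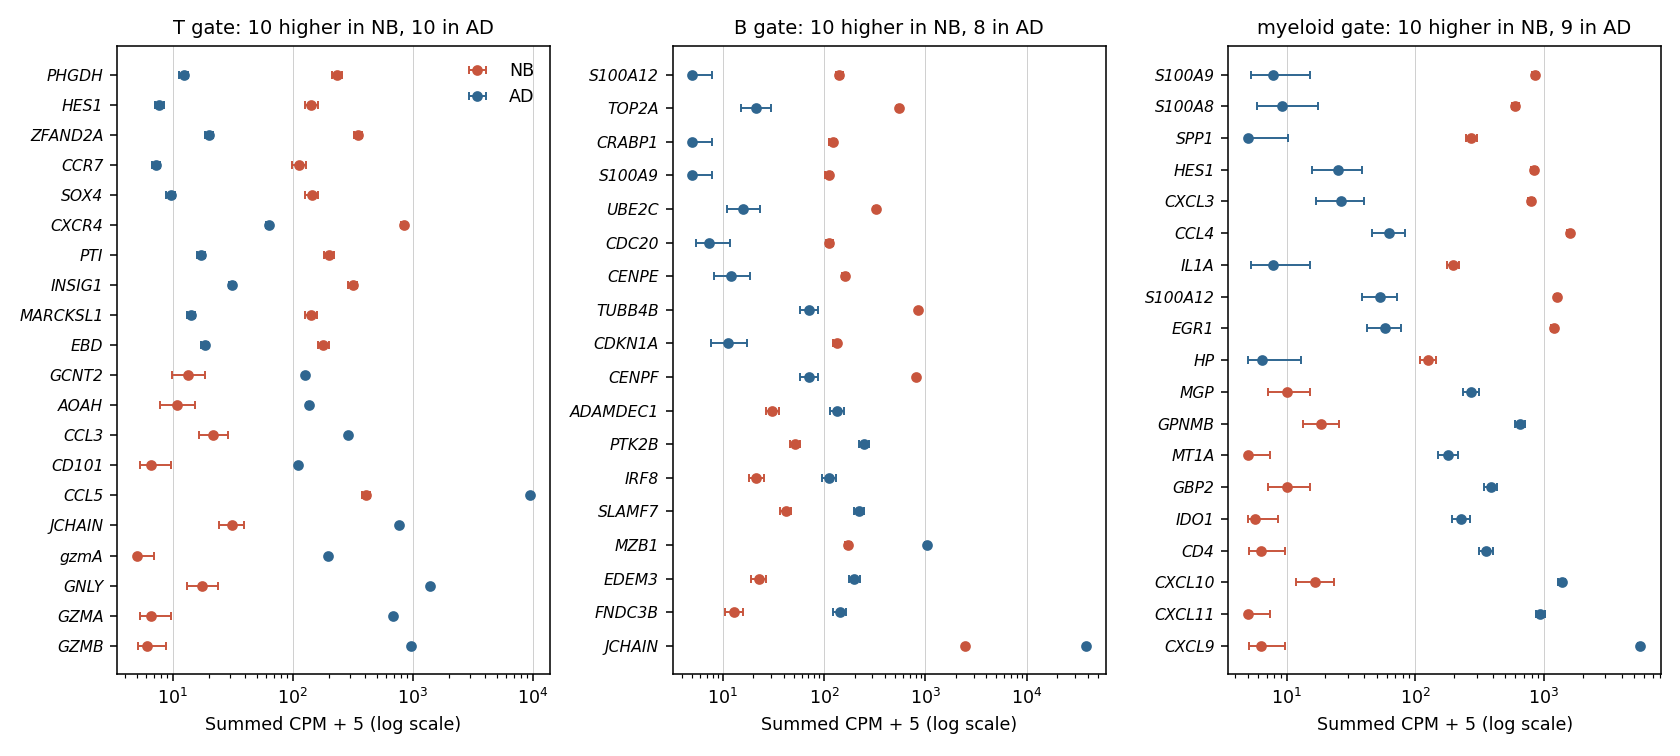
Summed level (CPM with 5 added, log x axis) of called genes with a symbol and at least 100 CPM in either library, among those with the largest log2 ratio in each direction within the T, B, and myeloid gates (1 panel each), with a point and a 95% exact Poisson interval for each stage. Panels hold 10 and 10, 10 and 8, and 10 and 9 genes higher in NB and AD, and the intervals are wider in the B and myeloid gates, where 175 and 97 AD cells were summed.

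In the B gate, 596 NB cells were set against 175 AD cells. Of 7295 genes, 186 were higher in NB (2.55%) and 51 higher in AD (0.699%), with a median of 0.16 over all compared genes. Cell division genes were mostly on the NB side. Of 25 genes of the division list 23 were higher in NB and 0 in AD (2.91), and the other 2 were *HMMR* (70.4 and 15.7 CPM) and *CDK1* (31.1 and 5.48 CPM). *TOP2A*, which untangles DNA, was at 542 and 16.4 CPM, and *UBE2C*, which ends mitosis, at 321 and 11 CPM. *CENPF* (803 and 65.7 CPM) and *CENPE* (154 and 7.04 CPM) act at the kinetochore. *CDC20* rested on 3 AD UMIs (107 and 2.35 CPM, a ratio of 45.7, interval 15.6 to 222). *TUBB4B*, a tubulin, was at 844 and 66.5 CPM, and *CDKN1A*, an inhibitor of the cell cycle, at 129 and 6.26 CPM.

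Shares of cells gave the same direction. *TOP2A* was present in 15.7% of NB and 1.71% of AD B gate cells after thinning (592 and 175 cells), and in 5.51% and 2.04% of the other barcodes. *MKI67* was present in 13.3% and 2.29%, against 2.96% and 2.30% of the other barcodes, so the AD shares of the gate lay at background. Without thinning, *MKI67* was present in 28.6% of the AD germinal center B cell-like cluster and 2.63% of the NB one. Of the 56 cells of that AD cluster, 34 were in the gate (60.7%). Over the whole AD gate *MKI67* was then present in 9 of 175 cells. The 2 NB dividing clusters, which division genes define, gave 163 of the 596 NB cells, and 79.9% and 88.9% of their cells were in the gate. Whether the gate lost more dividing B cells in AD than in NB was not tested. Without these 2 NB clusters, and with all AD cells kept, 139 genes were higher in NB and 46 in AD, and 0 of 14 division genes were called (0.29). DNA replication genes followed, with 7 of 23 higher in NB (1.82) in the full gate. Without the dividing clusters 0 of 20 were called (0.37).

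Plasma cell genes were on the AD side of the B gate. The cells of the gate lay in different clusters, and plasma cell-like clusters, which such genes define, held 45 of the 596 NB and 39 of the 175 AD cells. *JCHAIN*, which joins antibody units, was at 2437 CPM in NB and 37923 CPM in AD and was present in 135 of the 175 AD cells. *MZB1*, which helps fold antibody chains, was at 167 and 1032 CPM, *EDEM3*, which acts on misfolded glycoproteins, at 17.7 and 193 CPM, and *SDC1*, the plasma cell surface protein CD138, at 0.623 and 26.6 CPM. In all, 3 of 13 plasma cell genes were higher in AD and 0 in NB (-1.65). *JCHAIN* was present in 29.9% of NB and 48.6% of AD thinned cells, and in 2.72% and 16.8% of the other barcodes. *SLAMF7* (36.8 and 215 CPM), *FNDC3B* (7.89 and 138 CPM), *PTK2B* (46.5 and 243 CPM), and *IRF8* (16.4 and 107 CPM) were also higher in AD. *FNDC3B* was at 65.5 and 160 CPM in the other barcodes. Without the plasma cell-like clusters of both libraries, 0 of 10 plasma cell genes were called (-0.20), with *JCHAIN* at 591 and 1987 CPM and *MZB1* at 57.2 and 100.3 CPM. Of the genes of this paragraph only *IRF8* (16.6 and 147 CPM) was then called, and over all genes 156 were higher in NB and 48 in AD.

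Few B cell identity genes were called. Of 17 B cell genes only *CD24* (94.7 and 4.7 CPM) was called, and the median was -0.18, with *MS4A1* at 514 and 935 CPM and *CD79A* at 546 and 393 CPM, both used to choose the gate. *CR2*, a complement receptor of B cells, was present in 17.4% of NB and 19.4% of AD thinned cells. *CCR7* (107 and 18.8 CPM), which guides cells into lymphoid tissue, was higher in NB. None of 10 class II genes was called (-0.03).

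Lists of other cells and of stress also lay on the NB side of the B gate, with 4 of 7 S100 genes (median 3.18), 3 of 6 neutrophil genes (2.90), 5 of 7 monocyte genes (2.51), and 9 of 31 stress and immediate response genes (1.39) higher in NB and none in AD. The S100, neutrophil, and monocyte lists share *S100A8*, *S100A9*, and *S100A12*, and the neutrophil and monocyte lists also share *IL1B*, so their counts are not separate. The neutrophil list summed to 382 CPM in NB and 19.6 CPM in AD, and its part in the contrast was not tested. Without the dividing clusters the medians of the S100, neutrophil, monocyte, and stress lists were 3.83, 3.43, 3.09, and 1.74.

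Several calls of the B gate rested on single cells. A single cell held 78.7% of the UMIs of *S100A12* (137 CPM in NB and 0 in AD) and 89.6% of those of *S100A9* (106 CPM and 0). *ADAMDEC1*, a protease of gut fibroblasts and macrophages, was at 25.7 and 129 CPM, but 78.8% of its AD UMIs lay in 1 cell and the other barcodes held 1668 and 12453 CPM. With cells of any epithelial, fibroblast, or endothelial marker left out its log2 ratio turned to 1.33. *CRABP1* (116 CPM in NB and 0 in AD, at least 49.6-fold higher) was spread over 25 cells. At least 50% of the UMIs lay in 1 cell for 8 of the 186 genes higher in NB and 15 of the 51 higher in AD. The NB dendritic cell-like and *LY6D* clusters, with 45 cells in the gate, moved the numbers to 204 and 59 when left out, and *IRF8* to 8.61 against 107 CPM.

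In the myeloid gate, 152 NB cells were set against 97 AD cells, the smallest of the 3 comparisons. The cells lay in different clusters: 97 NB cells were macrophage-like and 42 monocyte-like, whereas 96 AD cells were macrophage-like and no AD cluster was monocyte-like. Of 7485 genes, 134 were higher in NB (1.79%) and 145 higher in AD (1.94%), with a median of -0.26. This split depended on the scaling. The TMM factors, whose log2 ratio of NB over AD was -0.32, raised the NB ratios, and 179 genes were then higher in NB and 100 in AD. The AD side was led by genes that interferon gamma induces. *CXCL9*, a chemokine for T cells, was at 5529 CPM in AD and 1.29 CPM in NB, which was 2 UMIs (a ratio of 4283, interval 1185 to 35376). *CXCL10* was at 11.6 and 1370 CPM, and *CXCL11* at 0 and 932 CPM, at least 481-fold higher. *IDO1*, which degrades tryptophan, rested on 1 NB UMI (0.646 and 222 CPM, a ratio of 344, interval 60.9 to 13689). The other barcodes held 0.328 CPM of *IDO1* in NB and 199 CPM in AD, and 53% of its AD UMIs over all members lay in a CD8 and cytotoxic-like cluster. *GBP2*, a guanylate-binding protein, was at 5.16 and 381 CPM.

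The chemokines were unevenly spread over the AD cells. *CXCL9* was found in 0 of 151 NB and 42.7% of 96 AD cells after thinning, against 2.14% and 8.42% of the other barcodes, and *CXCL10* in 0 and 14.6%, against 2.88% and 6.38%. The AD interval of *CXCL10* (8.21 to 23.3) overlapped that of the other barcodes (4.17 to 9.27), so its share was not separated from background. A single cell held 19.5% of the AD UMIs of *CXCL10* and 45.3% of those of *CXCL11*, and the 5 highest cells held 57.9% of those of *CXCL9*. Of 23 interferon response genes 6 were higher in AD and 0 in NB (-1.36), among them *GBP5* (1.94 and 65.6 CPM), *SAMD9* (45.8 and 276 CPM), and *IFI27* (0 and 59.9 CPM). Of 12 class I genes, *TAP1*, which loads peptides, was higher in AD (69.1 and 326 CPM). None of 11 class II genes was called (-0.72), with *CD74* at 14136 and 43362 CPM.

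Macrophage genes were high at both stages. *C1QA* was at 7290 and 13382 CPM, *APOE* at 19274 and 6131 CPM, and *TIMD4* at 1573 and 549 CPM, and none of them was called. *TIMD4* was present in 57.0% and 41.7% of thinned cells and *FOLR2*, a folate receptor of resident macrophages, in 47.0% and 55.2%. Of 25 macrophage genes 3 were higher in AD (-0.47): *GPNMB*, a gene of lysosome-rich macrophages (13.6 and 644 CPM), *VSIG4*, a complement receptor (34.2 and 155 CPM), and *LYVE1* (0 and 18.5 CPM). The other called gene was *SPP1*, osteopontin, which was higher in NB (267 CPM and 0 in AD, at least 62.5-fold). Of 18 complement genes 7 were higher in AD (-1.51), for example *C2* (40.7 and 248 CPM) and *SERPING1* (5.16 and 241 CPM). Without the NB monocyte-like cluster 3 macrophage genes (*APOE*, *TIMD4*, and *SPP1*) were higher in NB and 2 (*GPNMB* and *LYVE1*) in AD (-0.41), and 5 of 21 complement genes were higher in AD (-0.98). Of 8 antibody receptor and related genes 4 were higher in AD, among them *FCGR3A* (129 and 790 CPM) and *FCGR2A* (15.5 and 208 CPM), receptors for antibody.

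*CD4*, the coreceptor of helper T cells, was at 1.29 CPM in NB (2 UMIs) and 349 CPM in AD, where 58 of 97 cells held it (a ratio of 270, interval 74.1 to 2246). T cell genes moved with it, although the gate allows no UMI of *CD3D*, *CD3E*, or *CD3G*. The T cell list summed to 197 and 784 CPM with 2 of 3 genes higher in AD (median -2.69), and the CD4 and helper list to 21.3 and 405 CPM, also with 2 of 3. In the AD T gate the T cell list summed to 8844 CPM, and *CD4* was present in 21.5% of the cells without thinning. The other barcodes of AD held 3.34 CPM of *CD4*. The part of T cells in the values of the myeloid gate was not tested. *MT1A*, a metallothionein, was at 0 and 175 CPM (at least 90.5-fold higher). *MGP*, a matrix gene, was at 5.16 and 268 CPM, but all of its AD UMIs lay in 1 cell. Its log2 ratio turned to 0.63 in cells with at least 2 *PTPRC* UMIs and to 1.13 without cells of other lineages.

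Immediate response genes and some cytokines were on the NB side of the myeloid gate. Of 27 cytokine and chemokine genes 4 were higher in NB and 2 in AD (0.41). The 4 were *CCL4* (1579 and 57 CPM), *CCL3* (1051 and 57 CPM), *TNF* (731 and 39.9 CPM), and *IL1A*, which rested on 2 AD UMIs (191 and 2.85 CPM, a ratio of 67.0, interval 18.4 to 556). *CXCL3*, which is not in the list, was at 791 and 21.4 CPM. These encode cytokines that recruit or activate other leukocytes. Of 33 stress and immediate response genes 19 were higher in NB and 2 in AD (2.51). *EGR1* (1189 and 52.7 CPM), *ATF3* (1160 and 78.4 CPM), and *NFKBIA* (2983 and 382 CPM) were among the 19, and *HES1* was at 834 and 20 CPM. The NB monocyte-like cluster held the largest NB share of the UMIs of *IL1A* (55.6%), *CXCL3* (43.9%), *CCL4* (37.2%), and *EGR1* (26.1%) over all members. Without its 42 cells, 147 genes were higher in NB and 151 in AD, 17 of 34 stress and immediate response genes were higher in NB (1.96), and *IL1A* was at 73.8, *CXCL3* at 768, *CCL4* at 1424, and *EGR1* at 931 CPM in NB, all still called. Of 26 cytokine and chemokine genes 5 were then higher in NB and 3 in AD, while the median was -0.27.

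Monocyte genes were higher in NB for 4 of 10 (1.82). *FCN1* was at 276 and 37.1 CPM and was present in 25 of 152 NB cells, and without the monocyte-like cluster it was at 19.3 CPM in NB and not called. Of 9 monocyte genes 3 were then still higher in NB and 1 in AD (-0.46). The S100 genes and *HP* rested on few cells. *S100A8* (592 and 4.28 CPM, a ratio of 138, interval 47.2 to 673) was present in 12 of 152 NB cells with 53.3% of its UMIs in 1 cell. *S100A9* (849 and 2.85 CPM, a ratio of 298, interval 82.3 to 2462) had 52.4% in 1 cell, *S100A12* (1267 and 48.5 CPM) 53.2%, and *HP*, haptoglobin (121 and 1.43 CPM, a ratio of 85.2, interval 15.1 to 3381), 76.1%. Without the monocyte-like cluster *S100A8* was at 87.5 CPM and *S100A9* at 117 CPM in NB, both still called, and no UMI of *HP* was left. At least 50% of the UMIs lay in 1 cell for 15 of the 134 genes higher in NB and 21 of the 145 higher in AD.

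The colon contrast was set beside the same contrast in cecum, jejunum, and duodenum, the other tissues with both stages here. Each of these tissues had its own NB and AD library, but the 4 AD tissues came from the same cow. The NB intestinal tissues had the trypsin step in common, the AD jejunum was digested as the AD colon was, and the AD duodenum and cecum were digested with a lamina propria kit for 30 min. Leukocytes numbered 2402 NB and 7519 AD in cecum, 2646 and 7013 in jejunum, and 784 and 7759 in duodenum. Genes called higher in NB were 480 of 7762 in cecum (6.18%), 161 of 7715 in jejunum (2.09%), and 369 of 7965 in duodenum (4.63%). Genes called higher in AD were 191 in cecum (2.46%), 167 in jejunum (2.16%), and 323 in duodenum (4.06%).

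Of the 165 genes higher in AD colon, 102 were also higher in AD in cecum (61.8%, and 53.4% of the cecum genes), 84 in jejunum (50.9% and 50.3%), and 93 in duodenum (56.4% and 28.8%). In all 3 tissues 63 were called (38.2%) and in none 40 (24.2%). Of the 231 genes higher in NB colon, 104 were also higher in NB in cecum (45.0% and 21.7%), 53 in jejunum (22.9% and 32.9%), and 94 in duodenum (40.7% and 25.5%). In all 3 tissues 38 were called (16.5%) and in none 110 (47.6%). Among all leukocytes the AD-higher share of the colon genes was thus the larger one in each tissue, with no test of the difference. Within the T gate, given below, the NB-higher share of the colon genes was the larger one. It was 45.5% against 43% in cecum, 36.6% against 27% in jejunum, and 35.7% against 24% in duodenum.

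Cytotoxic genes were called higher in AD among the leukocytes of all 4 tissues, in 10 of 18 compared genes in colon, 8 of 16 in cecum, 11 of 16 in jejunum, and 9 of 17 in duodenum. *CCL5* was at 108 and 8707 CPM in cecum, 109 and 1801 CPM in jejunum, and 64.5 and 1828 CPM in duodenum, always higher in AD. *GZMB* was at 32.9 and 739, 0.92 and 507, and 3.4 and 99 CPM in the same order. On the NB side, *HES1* was at 338 and 3.91 CPM in cecum, 414 and 17.3 CPM in jejunum, and 252 and 3.62 CPM in duodenum. *ZFAND2A* was higher in NB there than in colon, at 1809 and 7.70, 1067 and 20.7, and 784 and 18.5 CPM. *STMN1*, by contrast, was called in colon alone of the 4 tissues, at 206 and 97.5, 192 and 128, and 169 and 94.5 CPM in the others. *S100A9* was called in cecum (85.1 and 14.8 CPM) and duodenum (24.2 and 0.144 CPM) but not in jejunum (14.4 and 12.8 CPM).

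Some B cell genes went the other way. Of the B cell list, 5 of 14 genes were higher in AD in cecum, 3 of 8 in jejunum, where 1 was higher in NB, and 8 of 14 in duodenum. *MS4A1*, at 245 CPM in NB and 53.2 CPM in AD colon, was higher in AD in cecum (6.82 and 122 CPM), jejunum (3.43 and 43.1 CPM), and duodenum (2.74 and 210 CPM). *VPREB3*, a gene of B cell development, was at 459 and 73.7 CPM in colon, but at 0.369 and 206, 0 and 34.4, and 0.131 and 285 CPM in those tissues. Among the leukocytes of these 4 tissues, the colon was thus the tissue whose NB library held the higher level of both genes.

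Within the T gate, the NB cells numbered 422 in cecum, 87 in jejunum, and 45 in duodenum, and the AD cells 6180, 2750, and 5876. Called genes in cecum were 313 higher in NB (4.21%) and 78 in AD (1.05%), in jejunum 246 (3.26%) and 89 (1.18%), and in duodenum 302 (3.91%) and 202 (2.62%). Stromal markers moved with these contrasts. The fibroblast and smooth muscle list was higher in NB for 9 of 10 genes in the cecum T gate (median 4.04), 8 of 9 in jejunum (3.36), and 8 of 8 in duodenum (3.64), against 0 of 7 in colon (-0.30). The endothelial list was higher in NB for 2 of 7, 2 of 6, and 8 of 8 genes in cecum, jejunum, and duodenum, and for 0 of 2 in colon. Their part in the values of these tissues was not tested. Of the 112 T gate genes higher in NB colon, 51 were called in cecum (45.5%, and 16.3% of the cecum genes), 41 in jejunum (36.6% and 16.7%), and 40 in duodenum (35.7% and 13.2%). Of the 100 higher in AD colon, the numbers were 43 (43% and 55.1%), 27 (27% and 30.3%), and 24 (24% and 11.9%). The cytotoxic genes were called higher in AD for 7 of 16 in the cecum T gate, 7 of 18 in jejunum, where 2 were higher in NB, and 0 of 19 in duodenum. In the duodenum T gate, with 45 NB cells, *CCL5* was at 980 and 2498 CPM, *GZMB* at 111 and 134 CPM, *GZMA* at 31.2 and 89.5 CPM, and *GNLY* at 138 and 172 CPM, none of them called. *CCR9* was higher in NB colon but higher in AD in jejunum (7.43 and 113 CPM) and duodenum (62.4 and 339 CPM), although its colon call was lost without the thymocyte-like cluster. *KLRJ1*, at 72.2 and 464 CPM in the colon T gate, was higher in NB in duodenum (704 and 35.9 CPM).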

How the data were processed

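The deposited values are raw UMI counts per gene and barcode, which the authors made from 10x Genomics 3' reads with Cell Ranger 3.1.0 on the cattle genome ARS-UCD1.2. The annotation release is not given in the sources used here. Each file listed 27270 genes, of which 7540 had no symbol and matched none in the RefSeq gene table of ARS-UCD2.0. Total UMIs were 62529511 in the NB colon, 48674267 in the AD colon, and 17707625 to 129458578 over the 15 libraries, and the depth behind each value sets its interval.

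Counts of all member barcodes, or of a gate, were summed per library and scaled to CPM. Each stage had 1 library, so no test was made. Genes were called by a ratio of at least 4-fold with a pseudocount of 5 CPM, non-overlapping 95% exact Poisson intervals, and at least 10 CPM in either library. Shares have exact binomial (Clopper-Pearson) intervals, and a gene with no UMI in 1 library was bounded by 3 counts over that library. Clusters were made within each library from 2000 variable genes, 30 principal components, and 20 neighbors at Leiden resolution 1. They were named from marker lists with at least 3 markers at 2-fold, at least 2 among the top 10 genes, and no other lineage with more markers among the top 50, limits that were set after seeing the data. Doublets were kept in the main values and scored by the Scrublet method, at 0.8% per 1000 cells, in an alternative. The mitochondrial limit of the study's methods was likewise an alternative, which 4 NB and 16 AD members exceeded. Free RNA was not removed.

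The genes named are, among genes with a symbol that are neither mitochondrial nor ribosomal, the 15 (all leukocytes) or up to 10 (each gate) called genes per direction with the largest ratio and at least 100 CPM in the higher library, plus genes of 43 lists. Some of these genes are not reported here. Members and lists were chosen with earlier results of these data known. The alternatives tried were another pseudocount, TMM scaling, other filters, thinning, and stricter gates. The scripts were checked on simulated data. Sums, intervals, and figures were made in Python 3.11.15 (pandas 2.3.3, NumPy 2.4.6, SciPy 1.17.1, matplotlib 3.10.9), clusters with scanpy 1.11.5 and igraph 0.11.9, and the TMM factors with edgeR 4.0.16 in R 4.3.3.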

Additional observations from a re-analysis of the deposited data

Results flagged for a closer look

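Genes that were called in opposite directions in the colon and in another tissue were singled out. The difference between tissues was not tested, since each stage of each tissue had 1 library. Among all leukocytes, 7 of the 231 genes higher in NB colon were higher in AD in cecum, 5 in jejunum, and 17 in duodenum. Over all compared genes, 2.46%, 2.16%, and 4.06% were higher in AD in these tissues. The cecum and jejunum counts thus lay near the overall share. Of the 165 genes higher in AD colon, 3 were higher in NB in cecum, 2 in jejunum, and 2 in duodenum. Over all compared genes, 6.18%, 2.09%, and 4.63% were higher in NB there.

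*MS4A1* and *VPREB3*, both B cell genes, had colon log2 ratios (NB over AD) of 2.10 and 2.56 and were higher in AD in the other 3 tissues. *CD79A* went from 283 and 43.4 CPM (NB and AD) in colon to 1.41 and 21.3 CPM in jejunum and 1.70 and 70.6 CPM in duodenum. *CD79B* went from 210 and 15.7 CPM to 4.35 and 41.3 CPM in cecum. *POU2AF1*, a coactivator of B cell genes, was at 166 and 20.5 CPM in colon and at 0 and 65.5 CPM in duodenum.

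The opposite pattern was seen for *ADAMDEC1* and *CXCL14*, with colon log2 ratios of -2.42 and -2.52 in all leukocytes and -2.48 and -2.12 in the T gate. *ADAMDEC1* was at 31.4 and 189 CPM in the colon leukocytes, against 245 and 8.78 CPM in cecum, 92.9 and 10.1 CPM in jejunum, and 18.4 and 0.287 CPM in duodenum. *CXCL14*, a chemokine of epithelial and stromal cells, was at 2.61 and 38.8 CPM in colon, against 58.3 and 1.79, 87.8 and 1.67, and 28.6 and 0.172 CPM. The fibroblast and smooth muscle-like cluster, 0.346% of the AD colon members, held 95.1% of the AD UMIs of *ADAMDEC1* and 96.2% of those of *CXCL14*. Other barcodes of the colon held 1668 CPM of *ADAMDEC1* in NB and 12453 CPM in AD. The fibroblast and smooth muscle list moved with this pattern: in all leukocytes 7 of 9 genes were higher in NB in cecum (median 2.74), 4 of 9 in jejunum (1.92), and 2 of 3 in duodenum (2.15), against 0 of 8 in colon (-0.49). The part of stromal RNA in it was not tested. *CXCL10* was at 4.69 and 42.2 CPM in the colon leukocytes but was called higher in NB in cecum (55.2 and 4.25 CPM). *CXCL9* was not called in cecum (40.2 and 11.2 CPM). It was higher in AD in jejunum (6.50 and 1332 CPM) and duodenum (0.261 and 42.0 CPM), as in colon.

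In the T gate, 2 of the 100 genes higher in AD colon were higher in NB in cecum, 2 in jejunum, and 5 in duodenum. Over all compared T gate genes, 4.21%, 3.26%, and 3.91% were higher in NB in these tissues. Of the 112 higher in NB colon, 2 were higher in AD in jejunum and 1 in duodenum. The shares over all compared genes there were 1.18% and 2.62%. Besides *ADAMDEC1* and *CXCL14*, the T gate genes called in opposite directions were *CCR9*, *KLRJ1*, *PTI*, *CDH17*, and *SNCB*.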

How the results depend on the processing

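With a pseudocount of 1 CPM, 444 leukocyte genes were called higher in NB and 265 in AD, with 231 and 208 in the T gate, 367 and 127 in the B gate, and 211 and 306 in the myeloid gate, and 62 genes were higher in NB in all 4 tissues. With at least 50 CPM required, the numbers higher in NB and AD were 69 and 76 in the T gate. They were 119 and 34 in the B gate and 97 and 94 in the myeloid gate. With cells thinned to 1000 UMIs, they were 137 and 170 in the T gate and 89 and 97 in the myeloid gate. The larger side of the T gate, NB in the main comparison (112 and 100), was thus AD in both settings. In all, 87 of 100 such counts stayed within 1.5 times. The setting without a filter could not change these counts, since a 4-fold call with 5 CPM added needs more than 10 CPM. The difference of shares (NB minus AD, in percentage points) was -58.6 for the T gate with 2 *PTPRC* UMIs required. For the B gate it was 35.6 without thinning, 31.1 thinned to 2000 UMIs, 12.7 with 2 marker UMIs, 22.9 with 2 *PTPRC* UMIs, and 24.6 without an upper gene limit. For the myeloid gate it was 5.52 without cells holding markers of other lineages. Of leukocyte lists with at least 3 compared genes, those with a median of at least 1 numbered 11 both at 50 CPM and without a filter (main 18). Those at or below -1 numbered 8 at 50 CPM, 3 without a filter, and 3 with 2 *PTPRC* UMIs (main 5). The thymocyte list turned to -1.83 at 50 CPM. *ADAMDEC1* turned to 1.33 in the B gate and *MGP* to 1.13 in the myeloid gate without cells of other lineages, and *MGP* to 0.63 with 2 *PTPRC* UMIs. At Leiden resolution 0.5 the NB cells formed 13 clusters. Without the NB monocyte-like cluster *HP* turned to -0.36 in the myeloid gate. Named genes were chosen for large ratios, which favors keeping a call. They also had at least 100 CPM, so the filter of 50 CPM or its absence could not change their calls. Of 1082 values of named genes under alternatives, 1057 kept their call and direction, 21 lost the call, and 4 reversed. Why the others moved was not tested. The alternatives that left out clusters or shared barcodes, and those for the other tissues, were chosen after seeing the data. Removing doublets gave 225 and 165 leukocyte genes. Leaving out members with shared barcodes gave 109 and 100 genes in the T gate, 191 and 51 in the B gate, and 130 and 147 in the myeloid gate. The B and myeloid gates held 175 and 97 AD cells, which leaves wider AD intervals than in the T gate. No paired analysis was possible because each stage had 1 library and the labels carry no replicate numbers.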

Other observations

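Genes without a symbol were among the most unequal. ENSBTAG00000052309 was at 391 CPM in NB and 0.858 CPM in AD colon leukocytes, but at 35132 and 131 CPM in the other barcodes of the colon. ENSBTAG00000050871 was at 141 and 1.37 CPM and was a leading gene of the NB mast cell-like cluster. In the other direction, ENSBTAG00000047700 was at 105 and 10581 CPM and was a leading gene of the AD plasma cell-like cluster, with 14.6 and 5901 CPM in the other barcodes. ENSBTAG00000040367 was at 0.695 and 551 CPM. These 4 were chosen after their values were seen.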
